A study of Mus musculus with 15 samples.

Results

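Axon guidance ligands and receptors were examined along the cerebellar granule neuron progenitor (CGNP) lineage of mouse medulloblastomas and of normal cerebella. The genes were chosen by symbol, as all rows of the count tables for semaphorins of classes 3 to 7, plexins, neuropilins, Eph receptors, ephrins, Robo and Slit proteins, netrins, Unc5 receptors and Dcc with at least 50 UMIs over all animals. The symbols matched 68 genes, and 65 of the 27803 genes in the tables were members. Epha1 with 10 UMIs, Epha6 with 35 and Ntn5 with 1 fell below the limit. The members were 20 semaphorins, 11 plexins and neuropilins, 12 Eph receptors, 7 ephrins, 4 Robo receptors, 3 Slit ligands, 3 netrins and 5 netrin receptors.

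Each count was a unique molecular identifier (UMI), a tag that marks a captured mRNA molecule, read by Drop-seq from the 3′ end of transcripts of single cells. The 3 groups held 5 mice each. WT samples were cerebella of untreated C57BL/6 mice at postnatal day 7 (P7), captured on a PDMS device. Vehicle and vismodegib samples were medulloblastomas of M-Smo mice, in which Math1-Cre, driven by a cloned Atoh1 promoter, switches on the SmoM2/EYFP allele, a constitutively active form of the Hedgehog signal transducer Smo. These mice received 3 daily injections from P12 to P14 of vehicle or of 75 mg/kg vismodegib, an inhibitor of Smo, and tumors were collected at P15 on a glass device. Age, genotype, device and the injections thus differ together between vehicle and WT and cannot be told apart there.

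Guidance cues steer growing axons and migrating neurons by binding receptors on the cell surface. Semaphorins signal through plexins, with neuropilins as co-receptors for the secreted class 3; netrins attract through Dcc and repel through Unc5 receptors; Slits repel through Robo receptors; and membrane-bound ephrins and Eph receptors signal in both directions between touching cells. In the developing cerebellum, granule neuron progenitors divide in the external granule layer under Sonic hedgehog, leave the cell cycle, extend parallel fibers along the surface and then migrate inward. Sema6a and its receptor Plxna2 act in the switch to inward migration, Plxnb2 acts in progenitors, and loss of Unc5c lets granule cells stray past the cerebellar border.

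Cells were divided into 4 stages of the lineage, Node A-like (dividing), Node B-like (progenitors, by a list with Hedgehog targets), Node C-like (early differentiating) and Node D-like (late differentiating), from markers that included no member. Some clusters fit their name poorly. Of the 2 tumor clusters called Node B-like, the smaller, of 2943 cells, was led by replication genes (Ung, Ccne2, Cdc6 and Mcm3), had 0 Node B markers among its 10 leading genes and a mean log2 marker fold of 0.28. It held 30.5% of vehicle and 57.9% of vismodegib Node B-like cells. A tumor cluster of 2412 cells was called Node C-like at a mean log2 marker fold of only 0.024, and Gm17322 and Hey1 were among its leading genes, as in clusters called Node B-like. It held 39.6% of vehicle and 21.7% of vismodegib Node C-like cells, and results are given below without each of these 2 clusters, an alternative chosen after seeing the data. In WT, a cluster of 1147 cells (72.2% of Node D-like cells) was led by Cntn2, a Node C marker, with Myt1 and Gap43 as in the WT Node C-like cluster, at a mean log2 marker fold of 0.65. WT cells called Node D-like numbered 1588 here, 1032 at a clustering resolution of 1.2 in place of 0.8 and 1004 with cells kept up to 4 SD in place of 5 SD over their animal's median UMIs and genes, and those called Node C-like 924, 1420 and 1372. The border between these 2 stages in WT, and shares of Node D-like cells, thus depended on the clustering. A tumor cluster of 1230 cells was left unnamed, and cells with some of its leading genes were called Node C-like or Node D-like under these other settings. With it added to the late stages, all member calls in late cells for vismodegib and for vehicle against WT, and for the vehicle stage change, were made again. "Early" below means Node A-like and B-like cells summed, and "late" means Node C-like and D-like cells summed. The unit of level is CPM, a gene's share of all UMIs of 1 class in 1 animal, scaled to 1000000, with the SD over animals, and fold changes come from the quasi-likelihood test of edgeR, with p-values adjusted by the Benjamini-Hochberg method over all genes tested. A call means an adjusted p under 0.05. The SE of an edgeR log2 value is its absolute value divided by the square root of the F statistic of that test. CPM of different genes are not compared, since the counts are not set against transcript length.

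The lineage held 5059 WT, 16561 vehicle and 10458 vismodegib cells, and its summed counts ranged from 1057012 to 15115204 UMIs per animal. SmoM2-EYFP transcripts were at a mean of 30.5 CPM in vehicle lineage cells, 25.7 in vismodegib and 0.214 in WT. Over the lineage, the Hedgehog targets Hhip, Ptch1 and Sfrp1 were lower after vismodegib by log2 values of -2.67, -1.42 and -0.96, whereas Gli1 was not called (-0.46, adjusted p = 0.41). The mix of stages differed between groups. Node D-like cells were 40.2 to 73.1% of late cells in WT, 11.7 to 24.1% in vehicle and 37.9 to 75.8% in vismodegib animals, so late values are also given within single stages. Earlier work on these data divided the tumors into 2 sets that no label names (vehicle 1 and 3 with vismodegib 1 to 3, and the rest). Summed over all members, lineage levels were 1773 and 1729 CPM in vehicle tumors 1 and 3 against 887 to 1054 CPM in the other 3, and 1504 to 2491 CPM in vismodegib tumors. Marker sums of other classes in late cells were low for microglia (9.34 to 71.1 CPM over all animals, against 30426 CPM in WT microglia-like cells). They were higher for the GABAergic interneuron list in vehicle (630 to 935 CPM) than in WT (391 to 558 CPM), and their part in the results was not tested.

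In WT cerebella, most members that could be tested rose from early to late stages. Of the 65 members, 26 passed the filter on low counts, which a gene can pass through either stage alone, and of these 16 rose and 3 fell (60.5% of all 8514 genes tested were called, 29.4% rising and 31.1% falling). The median log2 change was 0.77 over these members and 0.00 over all genes tested. Plxna2, the receptor of Sema6a, rose most, from 17.0 ± 7.90 to 155 ± 51.7 CPM (SD, n = 5), a log2 change of 3.18 ± 0.15 (SE, adjusted p = 1.3e-27). All 5 WT animals were higher in the late than in the early stages for Plxna2, and the ranges did not overlap. Sema6a itself was at 141, 173, 142, 157 and 183 CPM in the early cells of WT animals 1 to 5, and at 434, 415, 397, 435 and 487 CPM in their late cells. Ligand and receptor thus rose in the same animals, Sema6a by a log2 value of 1.41 ± 0.08.

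Netrin receptors changed in opposite directions in WT. Unc5c was at 61.2, 68.5, 44.9, 44.2 and 60.6 CPM in early cells of WT animals 1 to 5 and at 176, 167, 139, 155 and 223 CPM in late cells. Every late value lay above every early value, with a log2 change of 1.57 ± 0.12 (adjusted p = 2.4e-18). Unc5b, a further repulsive netrin receptor, rose from 8.09 ± 1.73 to 51.5 ± 8.67 CPM (log2 change 2.45 ± 0.22). Dcc, the attractive netrin receptor, fell from 38.0 ± 11.9 to 19.4 ± 3.68 CPM (log2 change -0.92 ± 0.20) in 5 of 5 animals. Among netrin ligands, Ntn4 rose with overlapping ranges (log2 change 0.51 ± 0.17). Ntn1, the classical netrin, did not pass the filter in this comparison and was at 12.1 ± 5.95 CPM in WT Node A-like cells, against 4.06 ± 3.45 CPM in Node D-like cells.

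Of the semaphorins, 6 of 10 tested rose in WT late cells and 1 fell, beside 29.4% of all genes rising and 31.1% falling. The secreted ligand Sema3d rose from 3.57 ± 1.94 to 26.5 ± 10.1 CPM (log2 change 3.16 ± 0.33). The transmembrane semaphorins Sema4g, Sema6c, Sema4c and Sema6d rose by log2 values of 2.01, 1.04, 0.87 and 0.80. The fall was in Sema7a, a membrane-anchored semaphorin, from 64.5 ± 45.6 to 31.1 ± 6.20 CPM, with overlapping ranges but a lower late value in each of the 5 animals. Plxnb2, a receptor of class 4 semaphorins, also fell, from 117 ± 28.5 to 54.0 ± 14.5 CPM (log2 change -1.16 ± 0.13). Plxna3 rose by 1.35 ± 0.24.

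The Eph receptors tested in WT all rose, beside 29.4% of all genes. Ephb1 rose by a log2 value of 2.12 ± 0.19, Epha7 by 0.81 ± 0.23 and Ephb2 by 0.44 ± 0.15. Epha7 was higher in 4 of 5 animals. The ephrin Efnb1 rose by 0.75 ± 0.18, while Efnb2 was not called (-0.03 ± 0.28). Robo2, a Slit receptor, rose from 80.6 ± 17.7 to 165 ± 35.4 CPM in 5 of 5 animals, and Robo1 was not called (-0.47 ± 0.29, adjusted p = 0.15). The role genes Nrp1, Sema3a, Plxna4 and Slit2 were not tested here. Nrp1 was at 4.99 ± 1.82 CPM in early WT cells, and Sema3a, Plxna4 and Slit2 reached at most 13.5, 4.62 and 4.08 CPM in any of the 4 WT stages.

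**Figure D1:**
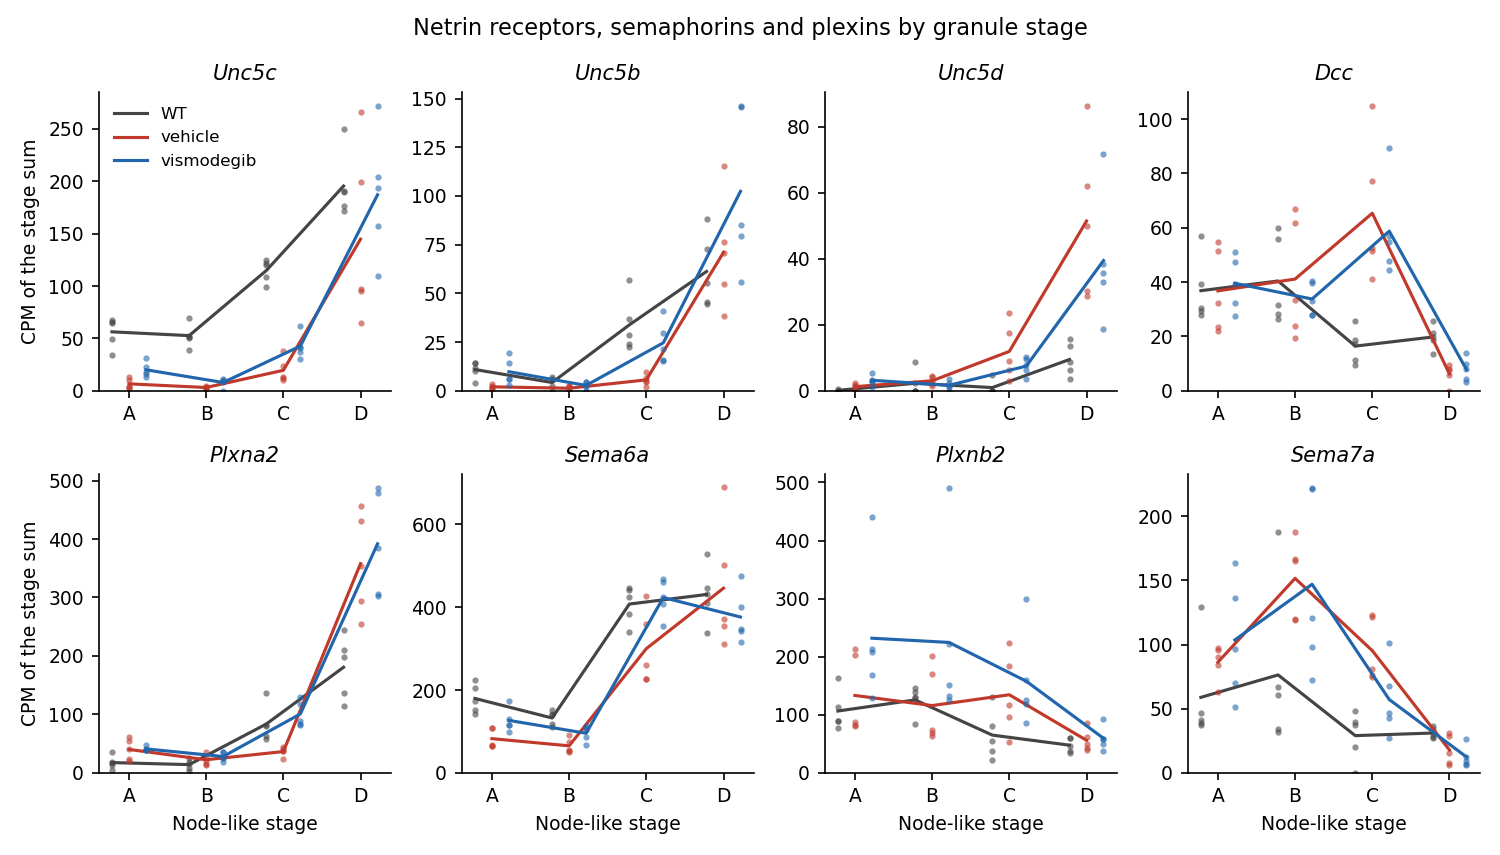
CPM of netrin-system and semaphorin-system members in Node A-like to D-like cells (x axis), with a point for each animal and a line through the group means of WT, vehicle and vismodegib. Unc5c lies lower in vehicle than in WT animals in Node A-like to C-like cells and reaches means of 195 CPM in WT and 145 CPM in vehicle Node D-like cells.

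The step of the same name was examined in the tumors, whose stages rest on other clusters than in WT and stand in other proportions. In vehicle tumors 43 members were tested, of which 20 rose and 8 fell (63.3% of all genes called, 32% rising and 31.3% falling). In vismodegib tumors 40 were tested, of which 25 rose and 7 fell (72.5% of all genes called, 35.1% rising and 37.3% falling). The median log2 change was 0.35 in vehicle and 0.91 in vismodegib, beside 0.01 and -0.01 over all genes. In vehicle tumors Ephb1 rose from 7.10 ± 2.83 to 66.0 ± 24.0 CPM, a log2 change of 3.13 ± 0.13. Unc5c rose by 2.87 ± 0.17, Sema6a by 2.06 ± 0.06, Sema4g by 1.93 ± 0.13 and Plxna2 by 1.39 ± 0.13, each in 5 of 5 tumors and without overlap of the stages. Sema4f (1.69), Sema6c (1.35), Efna4 (1.18), Plxna3 (1.10), Ephb2 (0.87), Ntn4 (0.84), Efnb3 (0.56) and Plxnb1 (0.39) rose less. Dcc also rose in vehicle tumors, from 39.1 ± 18.7 to 56.4 ± 22.4 CPM (log2 change 0.60 ± 0.11), higher in 5 of 5. Sema7a, Nrp1 and Robo1 fell by 0.52, 0.65 and 0.38 on the log2 scale, the call for Robo1 being lost without vehicle tumor 1, 2 or 5 (adjusted p of 0.052 to 0.066). Of the 9 Eph receptors tested in vehicle tumors, Ephb1 and Ephb2 rose and 4 fell. In WT only 3 were tested, so the counts cover different sets of receptors. In the interaction test described below, the Eph receptors called were Ephb1, with a larger change in vehicle, and Epha7, with a smaller one. Without the weakest Node C-like cluster, 23 of the 28 calls were made again. Efnb3 was among those that were not (0.36 ± 0.18, adjusted p = 0.076), and the rest are not named here. Unc5b (2.97) and Efnb2 (1.11) were called from levels under 20 CPM; Robo2, Sema4c, Ntn1 and Plxnb2 were not called.

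In vismodegib tumors the largest rises among members reaching 20 CPM were in Sema4g (log2 change 3.28 ± 0.16), Unc5d (3.18 ± 0.26), Unc5b (3.01 ± 0.20), Ephb1 (2.90 ± 0.12), Unc5c (2.83 ± 0.13) and Plxna2 (2.67 ± 0.09). Sema4f (2.03), Sema6a (1.71), Robo2 (1.64), Plxna3 (1.40), Efnb3 (1.39), Sema6d (1.30), Ephb2 (1.17), Efnb2 (0.99), Ntn4 (0.84), Epha3 (0.83), Sema4c (0.71) and Sema6c (0.69) also rose. Sema7a fell from 120 ± 57.0 to 35.5 ± 22.9 CPM, Ntn1 from 59.8 ± 31.3 to 27.2 ± 17.3 CPM and Plxnb2 from 231 ± 132 to 111 ± 63.4 CPM, each in 5 of 5 tumors. Dcc, Nrp1, Plxnb1 and Plxnc1 fell by 0.54, 0.44, 0.42 and 0.31 on the log2 scale. The call for Dcc was lost without vismodegib tumor 4 or 5 (adjusted p = 0.13 and 0.21). Those for Plxnb1 and Plxnc1 were lost without vismodegib tumor 2 (0.10 and 0.082), and that for Nrp1 without tumor 2 or 3 (0.10 and 0.11).

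**Figure D2:**
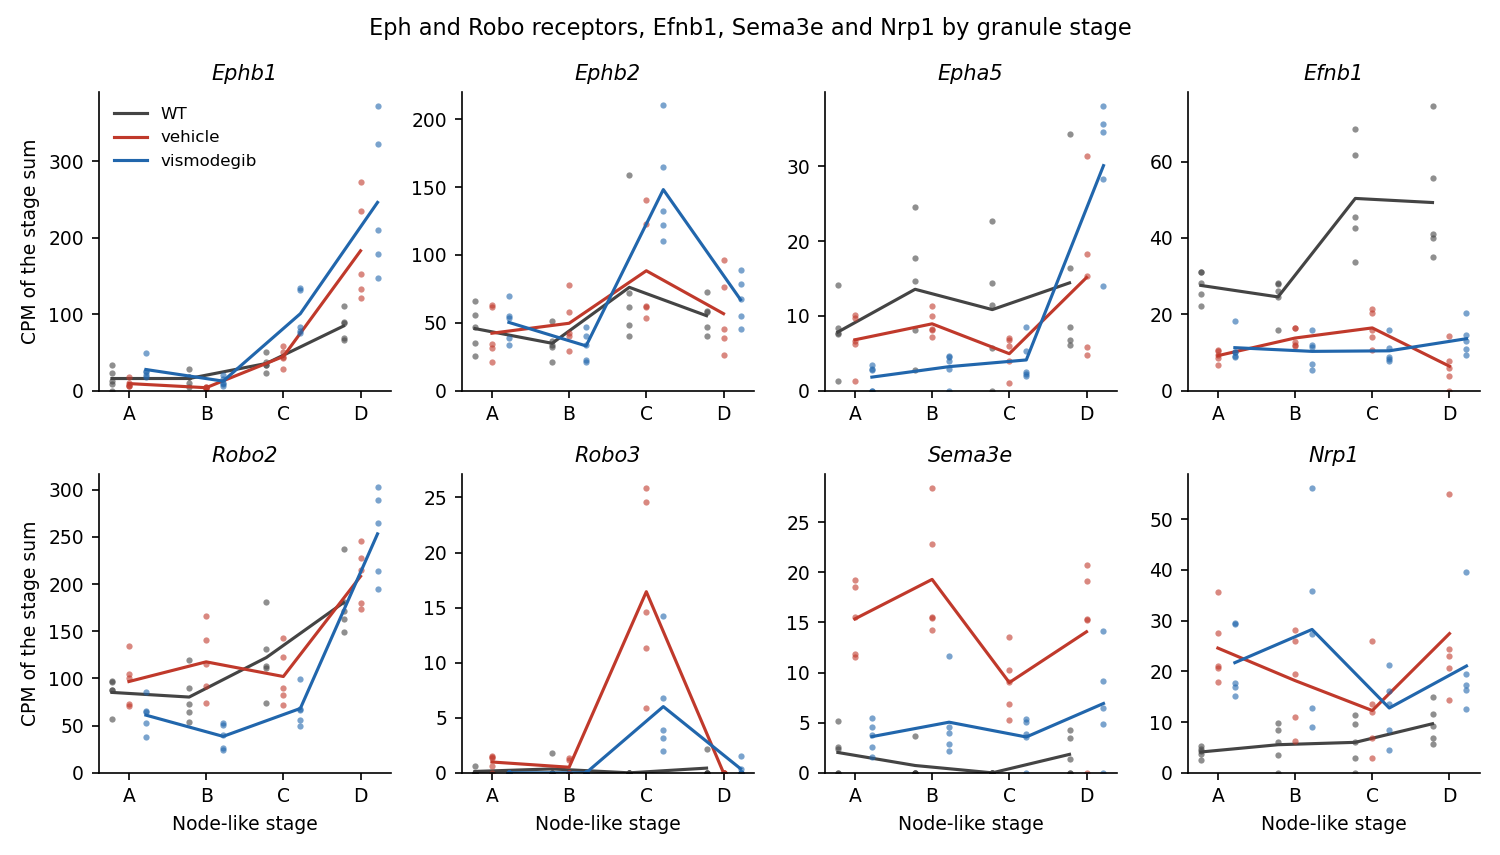
CPM of Eph, ephrin and Robo members in Node A-like to D-like cells (x axis), with a point for each animal and a line through the group means of WT, vehicle and vismodegib. Ephb1 rises towards Node D-like cells in all 3 groups, and Robo3 has a mean of 16.4 CPM in vehicle Node C-like cells and of 0 CPM in WT Node C-like cells, where 3 UMIs would be 8.51 to 34.0 CPM per animal.

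Whether the change along the lineage differed between vehicle tumors and WT was tested directly as an interaction of stage and group. Of 38 members tested, 10 had a larger log2 change in vehicle and 5 a smaller one (12.7% of all genes called, 8.29% larger and 4.37% smaller). Under library-total scaling these were 9 and 5, and the share of larger changes among all called genes moved from 65.5 to 55.4%. The late sums differed in mix, with a median of 67.9% Node D-like cells in WT and 13.3% in vehicle, so the test was also run with each late stage alone against early cells, chosen after seeing the data. Dcc fell in WT and rose in vehicle, and the difference was 1.55 ± 0.24 (adjusted p = 7.2e-07). It was 1.92 ± 0.34 with Node C-like cells and of opposite sign, -1.81 ± 0.55 (adjusted p = 0.014), with Node D-like cells as the late stage. The mean of Dcc in vehicle Node D-like cells lay below 3 UMIs, which would be 8.86 to 23.5 CPM per tumor. Plxnb2, which fell in WT and changed by 0.01 ± 0.14 in vehicle, differed by 1.2 ± 0.18, and by 1.01 ± 0.24 with Node C-like and 0.19 ± 0.26 (not called) with Node D-like cells. The rise of Plxna2 was smaller in vehicle, by a log2 value of -1.76 ± 0.22, and by -1.93 ± 0.28 to Node C-like cells, whereas to Node D-like cells the difference was 0.14 ± 0.23 and not called. Robo2, which rose in WT and was not called in vehicle (0.13 ± 0.07), differed by -0.79 ± 0.13, a call lost with either stage alone (-0.53 and -0.08). For Unc5c, Ephb1 and Sema6a the rise was larger in vehicle, by 1.33, 1.03 and 0.68. These 3 were called with the same sign with either stage alone, at 0.98 and 3.05 for Unc5c, 1.52 and 2.22 for Ephb1, and 0.66 and 1.14 for Sema6a with Node C-like and Node D-like cells. Sema4f, not called in WT (0.40 ± 0.20), differed by 1.32, a call lost with Node C-like cells alone (0.92, adjusted p = 0.13). Sema7a changed sign, from 0.90 ± 0.28 with Node C-like to -1.66 ± 0.38 with Node D-like cells. Early levels of Unc5c, Ephb1, Sema6a and Sema4f were lower in vehicle than in WT, as follows.

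Tumor and normal progenitors were compared in the early stages. Of 37 members tested, 5 were higher and 8 lower in vehicle (41.9% of all genes called, 20% higher and 21.9% lower), with medians of -0.05 over the members and 0.05 over all genes. When counts were scaled to the library total, the median of all genes rose to 0.18 and 13 members were called, 7 higher and 6 lower, so directions here are relative to that shift. Unc5c showed the largest difference. It was at 6.45, 3.23, 8.49, 4.05 and 2.52 CPM in early cells of vehicle tumors 1 to 5, against 44.2 to 68.5 CPM in WT. No vehicle tumor came near a WT animal, and the log2 difference was -3.72 ± 0.29 (adjusted p = 8.4e-08). Within Node A-like and Node B-like cells alone it was -3.42 ± 0.37 and -4.26 ± 0.32. The early mix differed as well, with a median of 70.2% Node B-like cells in WT and 55.9% in vehicle, and calls not made within single stages are given below. Without the Node B-like cluster led by replication genes, all 13 calls of the early sum were made again, among 15.

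The other members called lower in vehicle early cells were Unc5b, Sema6a, Sema4f, Efnb1, Ephb1, Efnb2 and Sema4d. Unc5b was at 1.72 ± 0.986 CPM against 8.09 ± 1.73 in WT (log2 difference -2.46 ± 0.41), and was tested in neither stage alone. Sema6a was at 98.5, 59.7, 95.3, 59.8 and 60.9 CPM in vehicle tumors 1 to 5, all below the WT range of 141 to 183 CPM (log2 difference -1.23 ± 0.17). Sema4f and Efnb1 were lower without overlap (-1.89 ± 0.29 and -1.35 ± 0.22), and Ephb1 with overlap (-1.32 ± 0.35). Efnb2 and Sema4d were lower by log2 values of -1.02 ± 0.38 and -1.09 ± 0.42, and each of these 2 calls was lost under library-total scaling. Leaving out any of WT 4 or 5 or vehicle 2, 4 or 5 ended both calls; WT 1 or vehicle 1 ended that of Efnb2, and WT 2 or 3 that of Sema4d. Over these, adjusted p ranged from 0.062 to 0.11 for Efnb2 and from 0.059 to 0.11 for Sema4d. In Node A-like cells alone, Ephb1 (-0.86, adjusted p = 0.19), Efnb2 (-0.93, 0.11) and Sema4d (-1.06, 0.071) were not called. In Node B-like cells alone Efnb2 was called (-1.37), Sema4d was not (-1.18, 0.092) and Ephb1 was not tested.

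Sema3e, a secreted semaphorin that binds Plxnd1, was higher in vehicle early cells. It was at 13.9, 20.4, 17.7, 12.8 and 21.0 CPM in vehicle tumors 1 to 5 and at 0, 2.69, 0, 3.15 and 1.41 CPM in WT animals 1 to 5. The WT values rest on 8 UMIs in all, and 3 UMIs in a WT early sum correspond to 1.40 to 4.23 CPM. The ranges did not overlap, and the fitted log2 difference was 3.48 ± 0.53 (adjusted p = 5.2e-05). Nrp1, a co-receptor for class 3 semaphorins, was at 31.2, 26.8, 17.0, 13.4 and 20.1 CPM in vehicle against 2.82 to 7.57 CPM in WT. All vehicle tumors were above all WT animals for Nrp1, by a log2 value of 1.95 ± 0.33. Ntn1 was higher with overlap (1.32 ± 0.41), and the ephrin Efnb3 and the receptor Ephb6 without overlap (1.23 ± 0.31 and 1.03 ± 0.33). Dcc (-0.09), Plxnb2 (-0.05), Robo1 (-0.15), Robo2 (0.26), Sema4c (0.15), Ephb2 (-0.05) and Plxna2 (0.78, adjusted p = 0.055) were not called. Among members not called in the early sum, Plxna2 (1.02, 0.039) and Efna4 (-0.97, 0.039) were called in Node A-like cells alone. Plxna3 (1.39, 0.014) was called in Node B-like cells alone, where Plxna2 was not (0.44, 0.40).

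**Figure D3:**
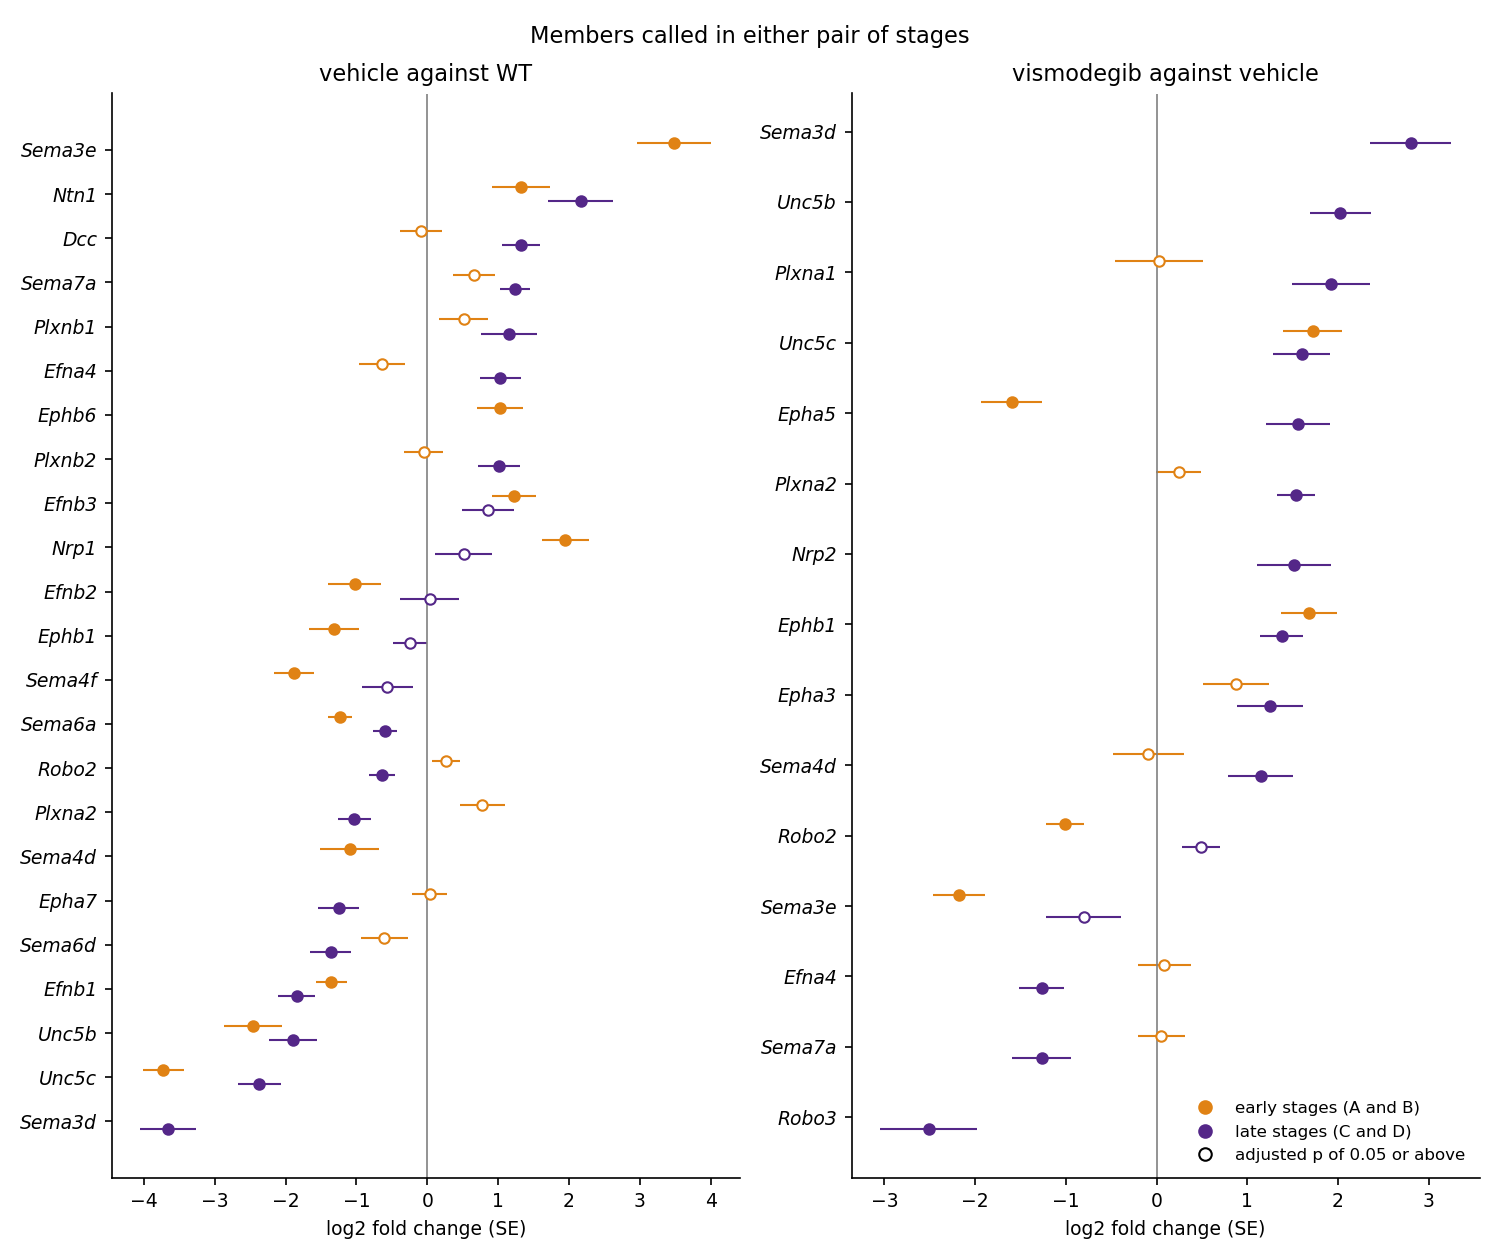
Log2 fold changes (x axis, bars are the SE) of members called in either pair of stages, for vehicle against WT and for vismodegib against vehicle, in early and in late stages; open points have an adjusted p of 0.05 or above. Unc5c lies at -3.72 in early and -2.37 in late cells of vehicle against WT, and at 1.72 and 1.60 for vismodegib against vehicle.

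In the late stages, 31 members were tested between vehicle and WT, of which 6 were higher and 9 lower (35.4% of all genes called, 16.9% higher and 18.6% lower). Under library-total scaling the median of all genes moved from 0.04 to 0.18, and 9 members were higher and 8 lower. Dcc was at 92.6, 37.8, 63.1, 41.1 and 47.4 CPM in vehicle tumors 1 to 5 and at 17.9, 23.8, 15.5, 22.7 and 17.0 CPM in WT. Each vehicle tumor was above each WT animal, with a log2 difference of 1.32 ± 0.27 (adjusted p = 0.00072). Ntn1, its ligand, was at 44.3, 17.4, 59.2, 16.9 and 19.7 CPM in vehicle against 3.10 to 12.1 CPM in WT (2.16 ± 0.46). Vehicle tumors 1 and 3 were the highest for both Ntn1 and Dcc. They were also the highest for the sum of all members in late cells, at 2514 and 2314 CPM against 1303 to 1413 CPM in the other vehicle tumors. The pattern is therefore not particular to Ntn1 and Dcc. Sema7a (1.24 ± 0.21) and Efna4 (1.03 ± 0.29) were higher without overlap, and Plxnb2 (1.01 ± 0.30) and Plxnb1 (1.15 ± 0.39) with it. The call for Plxnb1 was lost without WT 1 or 4 or vehicle 1 or 3 (adjusted p of 0.063 to 0.074).

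Lower in vehicle late cells were Sema3d (-3.66 ± 0.39), Unc5c, Unc5b, Efnb1, Sema6d (-1.36 ± 0.29), Epha7 (-1.25 ± 0.29), Plxna2, Robo2 and Sema6a. Unc5c was at 54.2, 22.0, 70.9, 27.8 and 17.8 CPM in vehicle tumors 1 to 5 and at 139 to 223 CPM in WT, a log2 difference of -2.37 ± 0.30 without overlap. Efnb1 was at 18.7, 15.8, 17.9, 9.66 and 12.5 CPM in vehicle and at 34.8, 57.2, 71.3, 41.6 and 41.2 CPM in WT, again without overlap (-1.85 ± 0.26). Plxna2 (-1.03 ± 0.23), Robo2 (-0.64 ± 0.18) and Sema6a (-0.59 ± 0.17) were lower with overlapping ranges. Sema6a was not called under library-total scaling. Without the weakest Node C-like cluster, 11 of these 15 calls were made again. Those for Plxna2 (-0.47 ± 0.22, adjusted p = 0.11), Sema6a (-0.16 ± 0.17, 0.50), Sema7a (0.19 ± 0.23, 0.56) and Efna4 (0.73 ± 0.30, 0.066) were lost.

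These late differences were not alike in the 2 stages that make up the sums. In Node C-like cells alone, 14 of the 15 called members could be tested. All 14 kept their direction, which is not independent of the sum, since these cells are part of it. Of 24 members tested in this stage, 9 were called (25.9% of all genes called), all among the 15. They were Unc5b (-2.99), Unc5c (-2.81), Efnb1 (-1.80), Sema6d (-1.57), Plxna2 (-1.37), Sema6a (-0.64), Sema7a (1.43), Ntn1 (1.59) and Dcc (1.64). Without the weakest cluster, 5 of the 15 were called in this stage, Unc5c (-2.19), Efnb1 (-2.10), Sema6d (-1.24), Plxna2 (-0.79) and Dcc (1.63). In Node D-like cells alone, 7 of the 15 could be tested, and 3 of them changed sign (4 of 16 members called, beside 31.2% of all genes). Plxna2 was higher in vehicle Node D-like cells by a log2 value of 0.83 ± 0.20 (adjusted p = 0.0018), at 358 ± 86.5 CPM against 181 ± 53.5 CPM in WT. The call did not hold under other clusterings, with values of 0.43 ± 0.20 at the higher resolution (adjusted p = 0.11) and 0.25 ± 0.20 with the stricter upper limit (0.38). Without the WT cluster led by Cntn2 it was 0.59 ± 0.22 (0.039). Unc5b (0.18 ± 0.29) and Robo2 (0.08 ± 0.18) were close to 0 there, and below 0 under both other clusterings. Unc5c was at -0.64 ± 0.27 (adjusted p = 0.070), and was called under these (-0.80 and -0.97). Without the WT cluster led by Cntn2, Unc5c was not called (-0.63 ± 0.30, adjusted p = 0.12). Efnb1 was called lower in each of the 2 stages. In Node D-like cells it was at 6.42 ± 5.31 CPM in vehicle and 49.3 ± 16.0 CPM in WT (-3.06 ± 0.48). This vehicle mean lay below 3 UMIs, which would be 8.86 to 23.5 CPM per tumor. In Node D-like cells Efnb1 was called lower again at the higher resolution. It was not tested there with the stricter upper limit or without the WT cluster led by Cntn2. Ephb1 and Sema4g, not called in the late sum, were higher in vehicle Node D-like cells by 0.97 ± 0.24 and 1.16 ± 0.30, calls lost under both other clusterings and without the WT cluster led by Cntn2 (0.26 to 0.57 and 0.75 to 0.88). Tumor and WT cells were clustered apart, so the same stage name rests on different clusters in each.

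The course of Dcc by stage differed between vehicle and WT. In WT its mean was 36.8, 40.4, 16.4 and 19.8 CPM in Node A-like, B-like, C-like and D-like cells. In vehicle it was 36.8, 41.1, 65.3 and 6.19 CPM, and in vismodegib 39.6, 33.8, 58.8 and 7.79 CPM. Of these, the vehicle Node D-like mean of 6.19 CPM lay below 3 UMIs, which would be 8.86 to 23.5 CPM per tumor. The tumors were thus highest in Node C-like cells in all 10 animals, where WT was lower than in its early cells. Robo3, a divergent Robo receptor known for commissural axon crossing, was found in Node C-like cells of tumors as well. In late cells it was at 12.8, 22.0, 4.67, 9.06 and 23.1 CPM in vehicle tumors 1 to 5, and in WT at 1.59 CPM in animal 2, from a single UMI, and at 0 in the other animals. A count of 3 UMIs would be 2.82 to 9.29 CPM in a WT late sum, a range that overlaps the vehicle values of 4.67 to 23.1 CPM. Between vehicle and WT it did not pass the filter and was not tested.

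**Figure D4:**
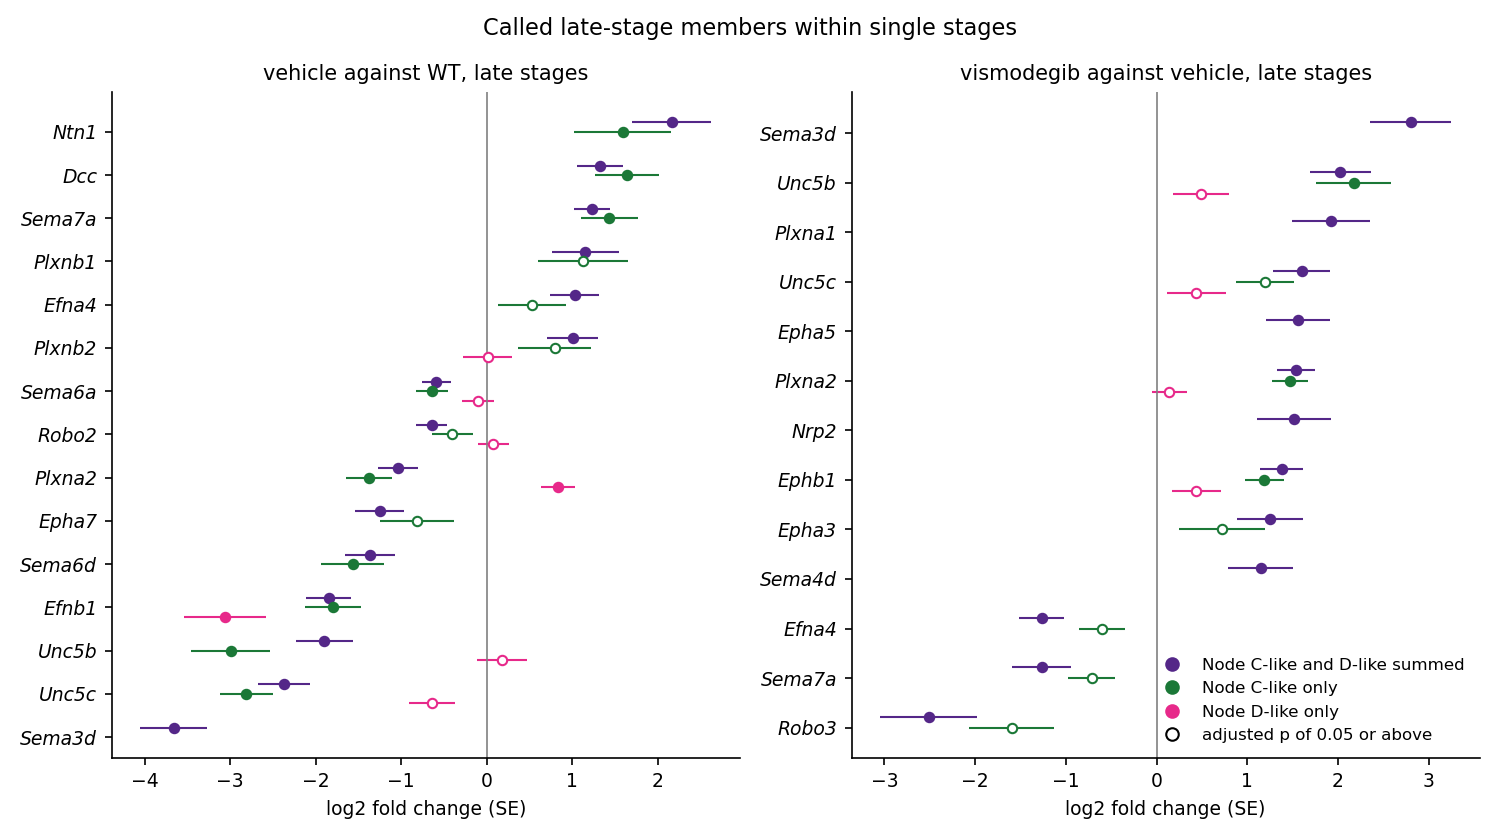
Log2 fold changes (x axis, bars are the SE) of the members called in the late stages, for vehicle against WT and vismodegib against vehicle, with Node C-like and D-like cells summed, Node C-like only and Node D-like only; open points have an adjusted p of 0.05 or above. For vehicle against WT, Plxna2 is at -1.03 in the sum, at -1.37 in Node C-like and at 0.83 in Node D-like cells, the last a call lost under both other clusterings.

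The effect of vismodegib was then compared with vehicle, using the same vehicle tumors that were compared with WT. The 2 contrasts share these samples, so their opposite signs are not independent. In early cells, 38 members were tested, of which 2 were higher and 3 lower after vismodegib (3.35% of all genes called, 1.07% higher and 2.28% lower), with a median of 0.04 over the members and 0.01 over all genes. Unc5c was at 16.5, 15.1, 19.9, 12.4 and 13.9 CPM in vismodegib tumors 1 to 5. Each was above the highest vehicle tumor (8.49 CPM) and below the lowest WT animal (44.2 CPM), and the log2 difference from vehicle was 1.72 ± 0.33 (adjusted p = 0.0082). Ephb1 was at 20.8, 38.1, 19.9, 15.6 and 17.5 CPM after vismodegib and at 4.70 to 11.8 CPM in vehicle, a log2 difference of 1.68 ± 0.31 without overlap.

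Sema3e, high in vehicle early cells, was at 4.33, 4.49, 5.80, 2.31 and 3.30 CPM in vismodegib tumors 1 to 5. All were below the vehicle range of 12.8 to 21.0 CPM, with a log2 difference of -2.18 ± 0.29 (adjusted p = 0.00053), and of -2.20 and -2.10 within Node A-like and Node B-like cells alone. Robo2 was at 47.7, 72.9, 56.3, 34.4 and 51.8 CPM after vismodegib and at 126, 107, 148, 72.9 and 79.5 CPM in vehicle. The groups met at 72.9 CPM without crossing, and the log2 difference was -1.01 ± 0.21. It was called in Node B-like cells alone (-1.56 ± 0.25) and not in Node A-like cells. Without the Node B-like cluster led by replication genes, Unc5c, Ephb1, Sema3e and Robo2 were called again in the early sum, and Epha5 did not pass the filter. In the remaining Node B-like cells Robo2 was called (-1.59 ± 0.31), and the other 4 were not tested. Epha5 was lower at 2.39 ± 0.890 against 7.74 ± 1.77 CPM (-1.59 ± 0.34), a call lost without vismodegib tumor 5 (adjusted p = 0.052). Efnb1 (-0.05), Dcc (0.01), Nrp1 (0.14), Ntn1 (0.86), Plxnb2 (0.90), Robo1 (-0.50), Ephb2 (-0.02), Efnb2 (0.53), Sema4c (0.43) and Sema6a (0.65, adjusted p = 0.058) were not called. With the 2 sets of tumors as a covariate, 12 members were called, 7 higher and 5 lower. Without vehicle tumor 3, 8 were called. The share of all genes called in these 2 fits is not given, so the gain is not read as particular to the members.

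In late cells, 42 members were tested, of which 10 were higher and 3 lower after vismodegib (12.2% of all genes called, 6.98% higher and 5.21% lower), and the medians were 0.43 over the members and -0.02 over all genes. Plxna2 was at 189.7, 264, 292, 229.7 and 245 CPM in vismodegib tumors 1 to 5 and at 86.6, 76.6, 125, 88.8 and 48.1 CPM in vehicle tumors. The groups did not overlap (log2 difference 1.54 ± 0.21, adjusted p = 0.00031). Unc5b was at 78.2, 76.7, 47.7, 41.8 and 66.7 CPM against 5.62 to 31.1 CPM (2.03 ± 0.34). Unc5c was at 96.6, 147, 110.2, 81.9 and 127 CPM, above each vehicle tumor (1.60 ± 0.31). Ephb1 was at 201, 229, 123, 125 and 175 CPM against 37.8 to 102 CPM (1.38 ± 0.24). All 4 were therefore higher in every vismodegib than in every vehicle tumor.

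Sema3d (2.80 ± 0.45), Plxna1 (1.93 ± 0.43), Epha5 (1.56 ± 0.36), Nrp2 (1.52 ± 0.41), Epha3 (1.25 ± 0.36) and Sema4d (1.15 ± 0.36) were higher at lower levels. Without vehicle 2, 4 or 5, the calls for Nrp2, Epha3 and Sema4d were lost (adjusted p of 0.061 to 0.14). Epha3 was also lost without vismodegib 1, 2 or 3, Nrp2 without 4 or 5 and Sema4d without any of 2 to 5 (0.053 to 0.16). Lower after vismodegib were Robo3, Sema7a and Efna4. Robo3 was at 9.20, 2.54, 1.06, 1.58 and 1.78 CPM in vismodegib tumors, and tumor 1 overlapped the vehicle range (log2 difference -2.51 ± 0.53). Efna4 did not overlap (-1.26 ± 0.25). Sema7a was at 46.0, 71.0, 18.0, 24.4 and 18.3 CPM against 111, 75.6, 98.1, 62.8 and 69.0 CPM in vehicle (-1.27 ± 0.32), and the call was lost without vismodegib tumor 4 (adjusted p = 0.053). Dcc was at 32.2, 29.8, 55.1, 25.2 and 17.6 CPM, overlapping vehicle, and was not called (-0.86 ± 0.29, adjusted p = 0.071). Sema6a (0.32), Ephb2 (0.36), Efnb1 (-0.25), Efnb2 (0.45), Robo1 (-0.55), Robo2 (0.49), Nrp1 (0.25), Ntn1 (-0.30), Plxnb2 (-0.15) and Sema4c (0.94, adjusted p = 0.12) were not called either. With the 2 sets of tumors as a covariate 22 members were called, 15 higher and 7 lower, and with the serial number of the tumor 20. The share of all genes called in these 2 fits is not given, so the gain is not read as particular to the members. Dcc (-0.98 and -0.86) and Sema4c (0.82 and 1.01) were called under both, and Ntn1 (-0.68) with the sets.

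The mix of late stages moved with treatment, and fewer members, and fewer of all genes, were called within single late stages. In Node C-like cells alone, 8 of the 13 called members could be tested. All had the same direction, which is not independent of the sum, since these cells are part of it. Of 34 members tested in this stage, 3 were called (1.88% of all genes called). Unc5b (2.17 ± 0.41), Plxna2 (1.47 ± 0.20) and Ephb1 (1.19 ± 0.22) were called, and Unc5c was at 1.19 ± 0.32 (adjusted p = 0.068). Without the weakest Node C-like cluster only Plxna2 was called there (1.21 ± 0.21). In the late sum without it, 10 of the 13 calls were made again, and those for Nrp2 (1.31, adjusted p = 0.054), Sema4d (1.01, 0.18) and Sema7a (-0.91, 0.095) were lost. In Node D-like cells alone, 0 of 18 members tested were called by edgeR, beside 0.0966% of all genes (1 member at an unadjusted p under 0.05, Sema4c at 1.30 ± 0.39; no other tool was run on single stages). The 4 of the 13 that could be tested there, Ephb1 (0.44), Plxna2 (0.14), Unc5b (0.49) and Unc5c (0.44), had the same sign with standard errors of 0.19 to 0.33. Clusters within a stage also differed in share between treatments. Of vehicle Node D-like cells 84.0% lay in a single cluster that held 49.7% of vismodegib Node D-like cells. Among Node A-like cells, a cluster held 45.2% in vehicle and 24.1% in vismodegib, and another held 17.5% and 41.4%.

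Summed over the lineage, 51 members were tested between treatments, with 16 higher and 3 lower after vismodegib (12.9% of all genes called, 8.47% higher and 4.46% lower). The median was 0.50 over the members and 0.00 over all genes, and 15 of the 19 called members had groups that did not overlap, beside 70.7% of all called genes. All 19 had the same direction within each of the 2 sets of tumors. For the 15 without overlap this was fixed in advance, so it adds no support. Besides the genes above, Sema6a rose from 145 ± 42.9 to 257 ± 27.9 CPM (0.84 ± 0.17), Sema4f by 1.39 ± 0.31, Sema4g by 0.94 ± 0.26 and Sema6b by 1.37 ± 0.32. Lower-level members that rose were Unc5a (1.92), Nrp2 (1.91), Sema5b (1.40), Plxna1 (1.39), Plxnd1 (1.23), Epha3 (1.19) and Sema3a (1.02). Epha8 (-1.97) and Robo3 (-1.73) fell beside Sema3e (-1.65). Calls for 8 of these genes were lost on leaving out single tumors. They were lost for Sema3a without any vehicle tumor or vismodegib 4 or 5, for Sema5b without any of vehicle 2 to 5 or vismodegib 2, 4 or 5, and for Robo3 without vehicle 2, 4 or 5 or any of vismodegib 2 to 5 (adjusted p of 0.051 to 0.15). For Plxnd1 and Sema4g this held for vehicle 2, 4 or 5 and vismodegib 1, with vismodegib 5 for Plxnd1 and vismodegib 2 for Sema4g. It held for Epha3 without vehicle 2, 4 or 5 or vismodegib 2, for Epha8 without vehicle 1 or 3 or vismodegib 4 or 5, and for Plxna1 without vehicle 2 or vismodegib 5 (adjusted p of 0.050 to 0.083 over these 5 genes). Without vehicle tumor 2, which was among those for 7 of these 8 genes, 12 members were called. A shift between stages and a change of level within a stage cannot be separated in this sum.

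Whether the treatment effect differed between late and early cells was tested as an interaction. Of 49 members tested, 12 had a larger log2 difference in late cells and 9 a smaller one (24.9% of all genes called, 11.2% larger and 13.7% smaller). Robo2 was lower after vismodegib in early cells and its late log2 difference was higher by 1.58 ± 0.21. Epha5 went from -1.59 in early to 1.56 in late cells, a difference of 3.29 ± 0.35. Plxna2 differed by 1.32 ± 0.16, and its early value of 0.24 ± 0.24 was not called. Sema7a (-1.35), Ntn1 (-1.32), Plxnb2 (-1.11) and Dcc (-1.10) had smaller values in late cells. The call for Dcc was lost with either late stage alone, at -0.24 (adjusted p = 0.46) with Node C-like and 0.090 (0.97) with Node D-like cells. For Unc5b and Ephb1 the interaction was 0.10 ± 0.60 and -0.18 ± 0.19 and was not called. With Node C-like cells alone as the late stage, Plxna2 (1.15 ± 0.18), Robo2 (0.53 ± 0.16), Sema7a (-0.73 ± 0.14), Ntn1 (-0.65) and Plxnb2 (-0.68) were called again, and Epha5 was not (1.11, adjusted p = 0.26). With Node D-like cells alone Plxna2 (-0.22 ± 0.16, adjusted p = 0.63), Sema7a (-0.20, 0.91) and Ntn1 (-0.65, 0.77) were not called. Robo2 (1.33 ± 0.15), Epha5 (2.84 ± 0.48) and Plxnb2 (-0.74) were called there as in the sum, and Ephb1 (-1.20), Unc5c (-1.26) and Unc5b (-1.57) were called lower.

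Genes that act with these receptors were counted from a list of 56 co-receptors, adaptors and effectors, such as cell adhesion partners and collapsin response mediators. In WT, 36 were tested from early to late stages, 24 rose and 7 fell, beside 60.5% of all genes called. The adhesion molecule L1cam, a partner of neuropilins, rose by 3.06 ± 0.15 and the Rac regulator Chn2 by 3.34 ± 0.29. The netrin antagonist Draxin fell (-1.37 ± 0.11), as did Dock1, a Rac activator below Dcc (-2.64 ± 0.26). Between vehicle and WT, 20 were higher and 9 lower of 43 in early cells (41.9% of all genes called), and 15 higher and 13 lower of 42 in late cells (35.4%). After vismodegib, 3 were higher and 4 lower of 46 in early cells (3.35%). In late cells, 12 were higher and 7 lower of 44 (12.2%), with L1cam at 1.30 ± 0.21, Chl1 at 2.75 ± 0.27 and Draxin at -0.69 ± 0.16.

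Some members had their highest level outside the granule lineage. By a rule on animals and level, Plxnb3 and Sema5a were highest in oligodendrocyte-like cells in every group. Plxnb3, a receptor of Sema5a, was at 106, 151, 145, 96.4 and 59.6 CPM in oligodendrocyte-like cells of WT animals 1 to 5. It was at 105, 29.0, 84.0, 51.4 and 43.2 CPM in vehicle tumors 1 to 5 and at 314, 265, 103 and 205 CPM in vismodegib tumors 1, 2, 4 and 5. Vismodegib tumor 3 had fewer than 10 such cells and was left out. The lowest vismodegib tumor (103 CPM) lay just below the highest vehicle tumor (105 CPM), so these groups overlapped. In late lineage cells Plxnb3 was at 1.82, 1.70 and 2.07 CPM in WT, vehicle and vismodegib.

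Of the 9 members tested in oligodendrocyte-like cells, Plxnb3 was called (1.90 ± 0.40, adjusted p = 0.012; 3.69% of all genes called, 2.31% higher and 1.37% lower). The call was lost without vehicle tumor 5 or vismodegib tumor 5 (0.053 and 0.077), and without vehicle tumor 1 or vismodegib tumor 4 there were 2 and 6 member calls. Library-total scaling left the member call and moved the share of higher genes among all calls from 62.7 to 49.2%. Oligodendrocyte markers moved with it. The sum of the marker list in this class was 17830 CPM in vehicle, 63905 CPM in vismodegib and 21585 CPM in WT, and its part in the result was not tested. Sema5a was at 205 ± 24.5 CPM in WT, 146 ± 76.2 in vehicle and 352 ± 224 in vismodegib (n = 4), with a log2 difference of 1.33 ± 0.42 that was not called (adjusted p = 0.093). In astrocyte-like cells 4 members were tested and edgeR called 0 (1.16% of all genes called, 0.894% higher and 0.268% lower; 2 members at an unadjusted p under 0.05, and 0 called by DESeq2). There Sema6d was at 242 ± 63.4, 171 ± 89.7 and 252 ± 78.8 CPM in WT, vehicle and vismodegib.

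Further members were singled out after their values were seen. Robo4, an endothelial Robo receptor, was highest in endothelial-like cells of all 4 WT, 3 vehicle and 4 vismodegib animals with such cells, at 135, 388 and 282 CPM. In vehicle late cells it was at 0 UMIs, which allows up to 0.937 to 2.95 CPM per animal. Nrp1 was also high in endothelial-like cells of tumors, at 1169 ± 339 CPM in vehicle (n = 3) and 733 ± 420 CPM in vismodegib (n = 4), and at 180 ± 119 CPM in WT (n = 4). In microglia-like cells Nrp1 was at 306 ± 62.1, 399 ± 101 and 630 ± 127 CPM in WT, vehicle and vismodegib. Unc5c in WT reached 373 ± 92.7 CPM in GABAergic interneuron-like cells, its highest class in 5 of 5 animals. These classes held few cells (82 WT and 113 tumor endothelial-like cells), and levels between groups were not tested.

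**Figure D5:**
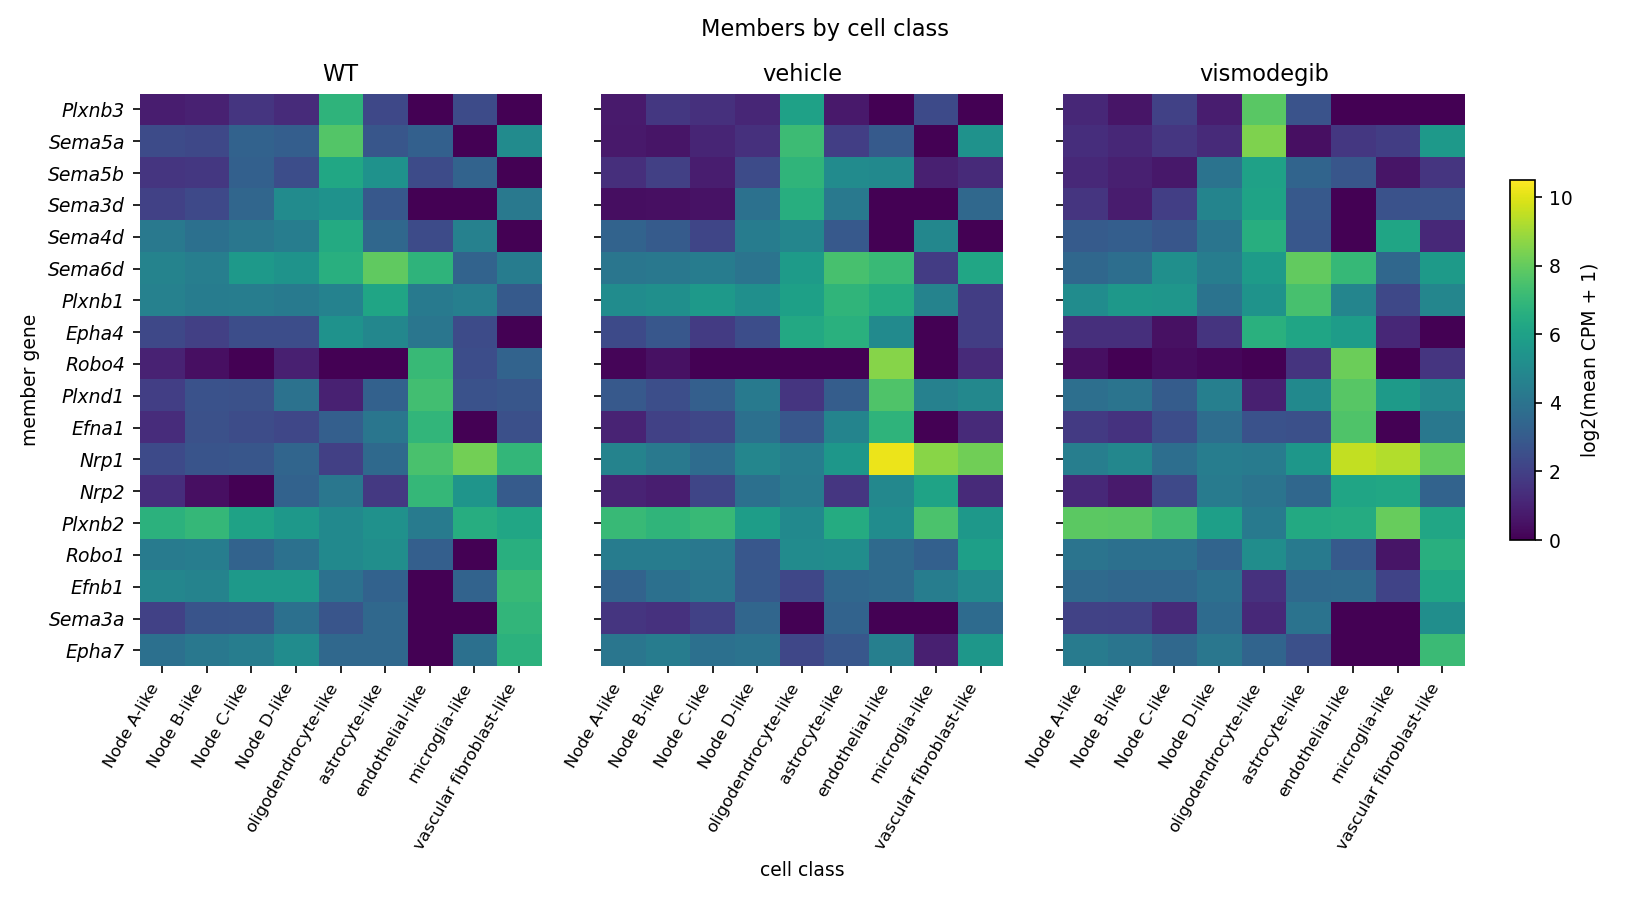
Mean level of members, as log2(mean CPM + 1) over animals with at least 10 cells of the class (color), by cell class (x axis) in WT, vehicle and vismodegib. Plxnb3 and Sema5a stand out in oligodendrocyte-like cells, Robo4 and Plxnd1 in endothelial-like cells, and Nrp1 in endothelial-like cells of the tumors.

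The Slit ligands were low in the lineage. Slit2 was at 0.568 to 4.08 CPM in the 4 WT stages and was not called where tested (0.50 ± 0.52 over the lineage after vismodegib). Slit1 and Slit3, with 146 and 59 UMIs in all tables, were among 12 members that passed the filter in no comparison. The others were Efna3, Epha2, Epha10, Ephb3, Plxna4, Robo4, Sema3b, Sema3c, Sema3f and Sema3g. The share of all genes called in at least 1 comparison is not given for the fits that follow, so their counts are not read as a result about these members. In fits with no filter, 8 of these 12 were called in at least 1 comparison, and 7 by DESeq2. Slit1, with 6 UMIs in WT, 120 in vehicle and 20 in vismodegib, was called there for vehicle against WT in early cells (3.25 ± 0.84, adjusted p = 0.00092) and for vismodegib against vehicle over the lineage (-2.34 ± 0.53, adjusted p = 0.0033). For Ntn3, UMIs are uncertain, since its span overlaps the coding gene Tbc1d24 on the same strand in GENCODE M21 on GRCm38. The genes on which most results turn lie on chromosome 3 from 141465216 to 141834924 (Unc5c), chromosome 1 from 194618218 to 194816869 (Plxna2), chromosome 5 from 14025276 to 14256689 (Sema3e) and chromosome 9 from 101922128 to 102354693 (Ephb1).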

How the data were processed

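UMI counts of 15 mice, 5 per group, were analysed. The authors made the deposited counts per gene and barcode with Drop-seq Tools and STAR on mm10 with Cre and SmoM2/EYFP added, after tumor barcodes with over 90% mouse reads had been kept against a human spike-in. Tools in the submitters' processing notes include Seurat 2.3.0. The gene annotation's version is not stated in any source at hand.

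Barcodes were kept from 500 UMIs and 500 genes up to 5 SD over their animal's median (30722 tumor and 7224 WT cells; no doublet caller was run). Tables shared at most 13 barcodes. Medians were 1082.5 to 2597 UMIs per cell. Tumor and WT cells were clustered separately (igraph 0.11.9, Louvain, resolution 0.8) and named from markers. Members, pathway genes and, after clusters were seen, hemoglobin genes were held out. A tumor cluster of 1230 cells stayed unnamed and out of the stages, although clusters with some of its leading genes were named Node C-like at resolution 1.2 and Node D-like with a limit of 4 SD.

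UMIs were summed per animal and class (at least 10 cells) and tested with edgeR 4.0.16 (TMM, filterByExpr, quasi-likelihood, Benjamini-Hochberg), with the animal as a block between stages. DESeq2 1.42.0, library-total scaling, no filter, stricter cells, resolution 1.2, replicate blocks and left-out animals were alternatives. Called members were named; above 25 calls, the 25 largest with 20 CPM in a group were, beside 17 genes with granule cell roles. Members and lists were chosen with earlier results of these data known. Scripts were tested on simulated data. Over the comparisons, 44% (oligodendrocyte-like cells) to 97% of genes changed by 2-fold were recovered, and 94 to 100% of those changed by 4-fold. Of the calls, 2.92 to 9.74% were false. The highest shares were in the drug by stage interaction (9.74%) and in early cells after vismodegib (9.52%).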

Additional observations from a re-analysis of the deposited data

Results flagged for a closer look

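In 63 groups of 5 animals whose member levels are printed by animal, 5 held an animal far from the others by Dixon's test, which chance gives in about 1 in 20 groups. These were Ephb1 in early cells of vismodegib tumor 2 (38.1 CPM), Robo2 in late cells of vismodegib tumor 5 (249 CPM), Robo3 in late cells of WT 2 (1.59 CPM) and of vismodegib tumor 1 (9.20 CPM), and Sema3d in late cells of WT 1 (44.2 CPM).

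The change from early to late stages differed between vehicle tumors and WT for 15 members in the interaction test by edgeR. The log2 change was larger in vehicle for Efna4 (1.85), Dcc (1.55), Unc5c (1.33), Sema4f (1.32), Plxnb2 (1.2), Efnb2 (1.17), Ephb1 (1.03), Sema7a (0.76), Plxnb1 (0.74) and Sema6a (0.68). It was smaller for Plxna2 (-1.76), Nrp1 (-1.35), Epha7 (-1.19), Robo2 (-0.79) and Sema4c (-0.69). The call for Plxnb1 was lost on leaving out any of WT 1 to 4 or of the 5 vehicle tumors (adjusted p of 0.050 to 0.23). That for Sema7a was lost without WT 1 (0.18, adjusted p = 0.70), those for Efnb2 without WT 4 or vehicle 4 or 5 (0.074 to 0.16), for Nrp1 without WT 1, 2 or 5 or vehicle 2 (0.053 to 0.23) and for Sema4c without WT 1 or 5 or vehicle 2 (0.053 to 0.17).

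The effect of vismodegib differed between late and early cells for 21 members. The log2 difference was larger in late cells for Sema5b (3.42), Epha5 (3.29), Plxna1 (2.04), Epha8 (1.86), Robo2 (1.58), Sema3e (1.56), Sema4g (1.40), Plxna2 (1.32), Sema4d (1.25), Sema6d (1.08), Efnb3 (0.90) and Sema4c (0.60). It was smaller for Ephb4 (-1.68), Efna4 (-1.36), Sema7a (-1.35), Ntn1 (-1.32), Plxnb2 (-1.11), Dcc (-1.10), Plxnb1 (-0.76), Sema6c (-0.62) and Sema6a (-0.30). Calls lost without single tumors were those for Epha8 (any of vehicle 3 to 5 or vismodegib 1, 3, 4 or 5; adjusted p of 0.057 to 0.12), Ephb4 (vehicle 1 or 3 or vismodegib 1, 2 or 3; 0.057 to 0.10), Sema6a (vehicle 1 or vismodegib 2 or 5; 0.053 to 0.095), Sema3e (vismodegib 4; 0.081) and Sema4d (vismodegib 5; 0.093). The median share of Node D-like among late cells was 67.9% in WT, 13.3% in vehicle and 47.1% in vismodegib, and many of these calls depended on which late stage was used. Between vehicle and WT, Unc5c, Ephb1 and Sema6a were called with either stage alone. Dcc, Sema7a, Plxna2, Plxnb2 and Efna4 were called with the same sign with Node C-like cells alone. With Node D-like cells alone Dcc (-1.81) and Sema7a (-1.66) were called with the opposite sign, Plxna2 (0.14) and Plxnb2 (0.19) were not called and Efna4 was not tested. Efnb2, Epha7 and Sema4f were called with Node D-like cells alone and not with Node C-like cells. With neither stage alone were Nrp1 (-0.92 and -0.61), Plxnb1 (0.77 and 0.32), Robo2 (-0.53 and -0.08) and Sema4c (-0.42 and -0.73) called.

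For the drug effect, Plxnb2 and Robo2 were called with either stage alone. Plxna2, Ntn1, Sema4g, Sema6d and Sema7a were called with Node C-like cells and not with Node D-like cells, and Epha5, Efnb3, Plxnb1, Sema6a and Sema6c the other way round. Calls lost with either stage alone were those for Dcc (-0.24 with Node C-like and 0.090 with Node D-like cells), Efna4 (-0.63 and 0.56), Sema3e (1.18 and 1.23), Sema4c (0.08 and 0.92) and Sema4d (0.90 and 0.15). Plxna1 and Sema5b were not called with Node D-like cells and not tested with Node C-like cells, and Epha8 and Ephb4 were tested with neither.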

How the results depend on the processing

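Over 181 called member results, 2477 of 2792 alternative values kept direction and call, 301 kept direction only and 14 changed sign; 99 results lost no call. All changes of sign came with Node D-like cells as the late stage. For vehicle against WT these were Plxna2 at 0.83, Robo2 at 0.078 and Unc5b at 0.18, with Plxna2 at 0.43 at resolution 1.2 and 0.25 with the limit of 4 SD, and with Plxna2 at 0.59, Sema6a at 0.48 and Unc5b at 0.18 without the weakest WT cluster. For the stage change in vehicle against WT they were Dcc at -1.81, Plxna2 at 0.14 and Sema7a at -1.66, and for the drug effect in late against early cells Dcc at 0.090, Efna4 at 0.56 and Plxna2 at -0.22. The cause was not tested.

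Counts of called members that moved by over 1.5 times were as follows. They stand without the share of all genes called in each alternative, so they are not read as particular to the members. For vismodegib against vehicle in early cells, 5 calls became 10 with DESeq2, 10 with no filter, 8 with the replicate block, 10 with the serial number of the tumor (up to 10 or above) as a covariate, 12 with the set of tumors (added after seeing the data), 3 in Node A-like cells only, 2 in Node B-like cells only and 1 in these without their weakest cluster (added after seeing the data, as were all below on a weakest cluster, another clustering of single stages or a single late stage in an interaction). In late cells, 13 became 20 with the serial number, 22 with the set, 3 in Node C-like cells only, 1 in these without their weakest cluster, 2 at resolution 1.2 and 3 with 4 SD, and 0 in Node D-like cells only under all 3 clusterings. For vehicle against WT in early cells, 13 became 25 with no filter and 8 in Node A-like cells only. In late cells, 15 became 27 with DESeq2, 30 with no filter, 9 in Node C-like cells only, 6 in these without their weakest cluster, 4 in Node D-like cells only, 3 at resolution 1.2, 2 with 4 SD and 1 without the weakest WT cluster. With Node C-like cells as the late stage, 15 stage differences became 8, and 21 drug by stage differences became 8, or 10 with Node D-like cells. For late against early stages in WT, 19 became 30 with no filter. In oligodendrocyte-like cells, 1 became 7 with no filter and 3 each with the replicate block and the serial number. Single-stage sums hold fewer cells and the absent filter tests more genes, and no cause of these moves was tested. In Node D-like cells only, tested members of the late calls had median absolute log2 values of 0.18 for vehicle against WT and 0.44 for vismodegib. Over all late calls these were 1.25 and 1.54. Median SEs were 0.27 and 0.29 in Node D-like cells, beside 0.29 and 0.36 in the sums. In Node C-like cells only the medians were 1.40 and 1.19, with SEs of 0.37 and 0.29.

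Leaving out 1 animal gave 12 (without vehicle tumor 2) to 21 calls over the lineage, 4 to 8 (without vehicle tumor 3) in early and 10 to 17 in late cells after vismodegib, 11 to 14 in early and 15 to 19 in late cells against WT, and 0 to 6 in oligodendrocyte-like cells. DESeq2 size factors moved the median of all genes for vehicle against WT from 0.05 to -0.46 in early and from 0.04 to -0.39 in late cells. Same-numbered vehicle and vismodegib tumors had correlations of deviations of -0.18 to 0.38, and 2 of 5 correlated best with their own number, so the numbers were not taken to pair them. The replicate block is therefore given only here.

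In all, 12 members passed the filter in no comparison, and shares of cells per stage rest on rebuilt names. Upper limits at 0 UMIs cover counting error only.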
